A study of Homo sapiens with 3 samples.

Results

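The cytosolic heat shock chaperones described here are the 10 genes HSP90AA1, HSP90AB1, FKBP4, HSPA8, HSPA1A, HSPA1B, HSPH1, DNAJB1, HSPB1 and HSPB8. They were chosen by gene name from 58039 listed genes, and all 10 reached the mean level at which 13112 genes were tested. RNA was sequenced from T47D, a luminal breast cancer cell line that carries the estrogen receptor. ERINA is a long noncoding RNA, and the ERINA knockdown group had 2 libraries, shRNA1 and shRNA2, of cells made with different short hairpin RNAs, set against 1 control library. Lentivirus delivered the hairpins, and puromycin kept the stable cells, per the labels' protocols. The control is named shCtrl in one label, while another gives its hairpin as None, so whether it carries a control hairpin was not settled. Nothing in the labels says whether a line is 1 clone. With 1 library of each kind, the p-values below rest only on the spread between the shRNA1 and shRNA2 libraries. For each gene, limma, the test used, draws that spread toward the one over tested genes of like level. An SE is therefore not the spread of its gene alone. The p-values hold no spread of the control.

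Heat shock proteins are molecular chaperones that bind unfolded or partly folded proteins. HSP70 proteins take up unfolded chains with the help of J-domain proteins and nucleotide exchange factors and pass some of them to HSP90, which finishes the folding of kinases and steroid receptors, the estrogen receptor among them. Small heat shock proteins hold unfolding proteins in a form that HSP70 can recover. The transcription factor HSF1 drives the inducible genes through heat shock elements, repeats of the unit GAA in alternating direction, and tumour cells often keep these genes active without heat.

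Levels are in FPKM, fragments relative to transcript length and to the size of the library, so those of different genes can be set side by side. The total was 860240 FPKM with shRNA1, 808451 FPKM with shRNA2 and 790290 FPKM in the control, and the depth estimated from genes with a single fragment was 32800000 to 34100000 fragments per library. ERINA, found under its RefSeq name LINC00992, stood at 5.21 FPKM with shRNA1 and 8.91 FPKM with shRNA2, against 63.4 FPKM in the control. Of 9 luminal epithelial markers, all 9 were detected. Of 13 stromal, endothelial and immune markers, 10 were under 1 FPKM in every library, COL3A1 and CD3E were at 0 in every library, and the list summed to 4.08, 4.46 and 4.36 FPKM with shRNA1, shRNA2 and in the control. In RNA from whole cultures, fewer cells that use a gene and less of its RNA in each cell cannot be told apart.

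The chaperones were abundant in all libraries, and they fell into a high and a low tier. HSPA8, the constitutive HSP70, stood first in each library, at 1908 FPKM with shRNA1, 1696 FPKM with shRNA2 and 1732 FPKM in the control. HSP90AB1, HSPB1, HSP90AA1 and FKBP4 made up the rest of the upper tier, from 141 to 752 FPKM. DNAJB1, HSPB8, HSPA1A, HSPA1B and HSPH1 lay between 15.3 and 56.1 FPKM. Summed over the 10 genes, the level was 3933 FPKM with shRNA1, 3654 FPKM with shRNA2 and 3836 FPKM in the control. That is 0.457%, 0.452% and 0.485% of all FPKM in those libraries.

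**Figure D1:**
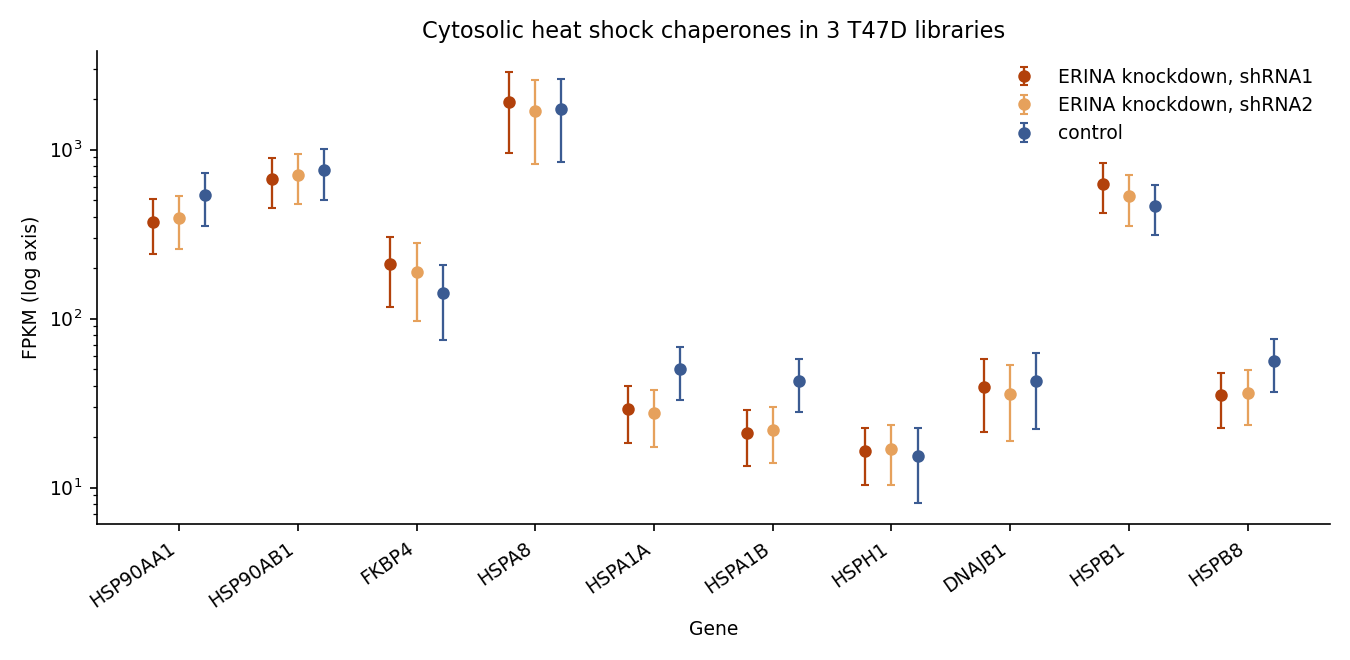
FPKM (log axis) of the 10 chaperone genes with shRNA1, shRNA2 and in the control, with bars for the deposited confidence interval of each library. HSPA1A, HSPA1B and HSPB8 stand lower with both hairpins than in the control, and HSPA8 stands highest in each library at 1696 to 1908 FPKM.

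The deposited confidence intervals set how finely this order can be read. In the control they reached from 32.6% of the value for HSPB1 to 50.98% for HSPA8 on each side, against a median of 55.7% over all tested genes. With shRNA1, the interval of HSPA8 lay clear of that of HSP90AB1, the next gene, and that of FKBP4 clear of that of DNAJB1. With shRNA2 only FKBP4 and HSPB8, and in the control only HSPB1 and FKBP4, were neighbours whose intervals did not overlap. Within the lower tier the intervals of all neighbours overlapped, while in the control that of HSPH1 lay clear below those of HSPB8, HSPA1A and HSPA1B. DNAJB1 was sixth of 10 with shRNA1, seventh with shRNA2 and ninth in the control.

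The 10 genes did not all go one way with the knockdown of ERINA. HSPA1A, HSPA1B, HSPB8 and HSP90AA1 were lower with both hairpins by 1.37-fold to 2.02-fold, HSP90AB1 and DNAJB1 were lower with both by less, FKBP4, HSPB1 and HSPH1 were higher with both, and HSPA8 was higher with one hairpin and lower with the other. That makes 6 of 10 lower with both, where 42.6% of all tested genes were, and 3 of 10 higher with both, where 42.4% were. At a size of at least 1.5-fold with both hairpins, a limit chosen after the values were seen, 3 of 10 were lower, against 7.21% of all tested genes, and 0 of 10 were higher, against 5.66%. The median log2 change of the 10 genes, taken on log2(FPKM + 0.5), was -0.15, and that of all tested genes was 0.0005. With equal totals the median of the 10 genes was -0.22, with 7 lower and 3 higher by the mean of the hairpins. That scaling put the median of all tested genes at -0.12 with shRNA1 and -0.03 with shRNA2.

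No chaperone passed limma over all tested genes at a Benjamini-Hochberg adjusted p under 0.05. Nor did ERINA, the targeted gene, with a log2 change of -3.12 (SE 0.33) and a limma Benjamini-Hochberg adjusted p of 0.0816. Over all genes 0.0839% passed higher and 0.267% lower. At an unadjusted p under 0.05, HSPA1A, HSPA1B, HSPB8 and HSP90AA1 were lower, 4 of 10 where 15.9% of all tested genes were. FKBP4 was higher, 1 of 10 where 13.7% were. The 4 lower genes include HSPA1A and HSPA1B, which share most of their sequence and may not be separate measurements. With limma on protein-coding genes alone, those 4 fell and FKBP4 rose at a Benjamini-Hochberg adjusted p under 0.05, a fit in which 11.3% of the genes fell and 7.11% rose. No chaperone had deposited intervals of both hairpins clear of the control, lower or higher, where 0.221% and 0.0839% of tested genes did. The hairpins gave similar values, with a median distance of 0.073 on the log2 scale between their changes over the 10 genes and 0.12 over all tested genes. That background was not matched for level. It reaches down to a mean of 1 FPKM, whereas the lowest value among the 10 genes was 15.3 FPKM.

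**Figure D2:**
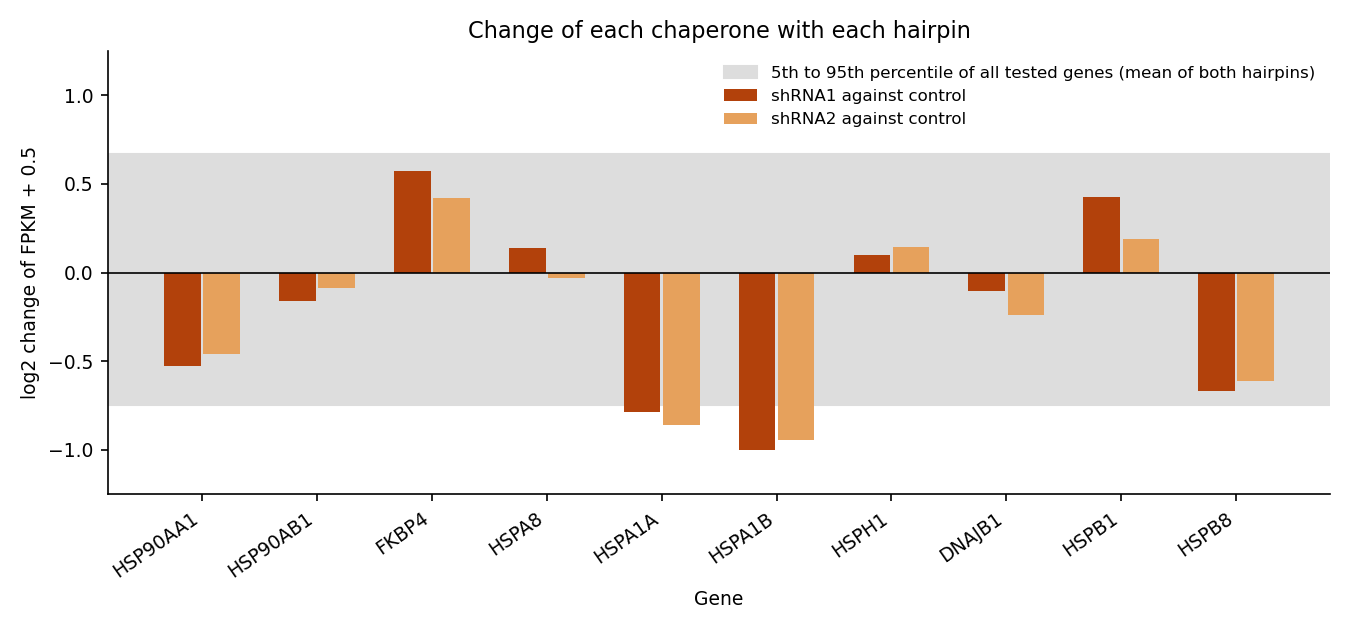
Change of log2(FPKM + 0.5) against the control for each chaperone gene with shRNA1 and shRNA2; the grey band spans the 5th to the 95th percentile of all tested genes, -0.75 to 0.67. HSPA1A and HSPA1B lie below the band with both hairpins, and the other 8 genes lie inside it.

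The cytosolic HSP90 genes differed in how far they moved. HSP90AA1 (ENSG00000080824, chromosome 14, 102080738 to 102139699 on GRCh38) encodes the stress-inducible HSP90 alpha. It stood at 374 FPKM with shRNA1 and 393 FPKM with shRNA2, against 539 FPKM in the control. Both hairpin libraries were below the control, 1.44-fold and 1.37-fold lower, and the log2 change was -0.49 (SE 0.09), with a limma Benjamini-Hochberg adjusted p of 0.0875 (0.0164 to 0.228 over the alternatives). WDR20, on the opposite strand, overlaps HSP90AA1 and stood at 21.3 FPKM with shRNA1, 20.1 FPKM with shRNA2 and 19.4 FPKM in the control. HSP90AB1 (ENSG00000096384, chromosome 6, 44246166 to 44253888) encodes the constitutive HSP90 beta. It stood at 674 FPKM with shRNA1 and 708 FPKM with shRNA2, against 752 FPKM in the control, a log2 change of -0.12 (SE 0.09). The share of HSP90AA1 in the summed FPKM of the pair was 35.7% with each hairpin and 41.7% in the control.

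FKBP4 (ENSG00000004478, chromosome 12, 2794953 to 2805423) encodes FKBP52, the immunophilin that joins HSP90 in steroid receptor complexes. It went the other way from HSP90AA1, at 210 FPKM with shRNA1 and 189 FPKM with shRNA2, against 141 FPKM in the control. Both hairpin libraries were above the control, 1.49-fold and 1.34-fold, with a log2 change of 0.49 (SE 0.10) and a limma Benjamini-Hochberg adjusted p of 0.0947 (0.0193 to 0.258 over the alternatives). The summed FPKM of the HSP90 pair was 4.997 times that of FKBP4 with shRNA1, 5.84 times with shRNA2 and 9.15 times in the control. The deposited locus of FKBP4 spans 28 other listed genes, and the annotated noncoding genes on its opposite strand were at most at 1.17 FPKM.

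Within HSP70, the inducible pair was lower with both hairpins and the constitutive gene was close to its control level. HSPA1B (ENSG00000204388, chromosome 6, 31827735 to 31830255) was at 21.1 FPKM with shRNA1 and 21.9 FPKM with shRNA2, against 42.7 FPKM in the control. HSPA1A (ENSG00000204389, chromosome 6, 31815464 to 31817946) was at 29.04 FPKM with shRNA1 and 27.6 FPKM with shRNA2, against 50.5 FPKM in the control. These are the genes of the heat-inducible HSP70, and for each the control lay above both hairpin libraries. HSPA1B was 2.02-fold lower with shRNA1 and 1.95-fold lower with shRNA2, with a log2 change of -0.97 (SE 0.09) and a limma Benjamini-Hochberg adjusted p of 0.0790 (0.00392 to 0.227 over the alternatives). HSPA1A was 1.74-fold and 1.83-fold lower, with a log2 change of -0.82 (SE 0.09) and a limma Benjamini-Hochberg adjusted p of 0.0829 (0.00544 to 0.227 over the alternatives). Among all tested genes these changes lie at the 2.58th and the 3.84th percentile from the most lowered end.

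The deposited interval of HSPA1B overlapped that of the control by 0.937 FPKM with shRNA1 and by 2.04 FPKM with shRNA2. For HSPA1A the overlap was 6.90 and 4.82 FPKM. The pair shares most of its sequence: 72.6% of the 50-base words of the longest HSPA1A transcript also occur in HSPA1B, so how the authors' counting divided fragments between them is uncertain. Their sum was 50.1 FPKM with shRNA1 and 49.5 FPKM with shRNA2, against 93.2 FPKM in the control. It is largely free of that division only if shared fragments were assigned within the pair, which the sources used here do not state. On the log2 scale the change of the sum was -0.90. Transcripts of other genes also hold 18.8% of the 50-base words of HSP90AB1, 17.5% of HSP90AA1, 15.4% of HSPA8 and 11.4% of HSPB1. For DNAJB1 the share was 2.57% and for FKBP4 1.90%, and HSPB8 and HSPH1 shared none. How such fragments were counted is not stated either.

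HSPA8 (ENSG00000109971, chromosome 11, 123057489 to 123063230) encodes HSC70, which serves folding in unstressed cells. Its values of 1908 FPKM with shRNA1, 1696 FPKM with shRNA2 and 1732 FPKM in the control put the control between the hairpins, and the log2 change was 0.05 (SE 0.13), or -0.023 when each library's total FPKM is made equal. HSPA8 stood 38.1-fold above the inducible pair with shRNA1, 34.3-fold with shRNA2 and 18.6-fold in the control. The inducible pair made up 2.56%, 2.84% and 5.11% of the summed HSP70 FPKM in those libraries.

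**Figure D3:**
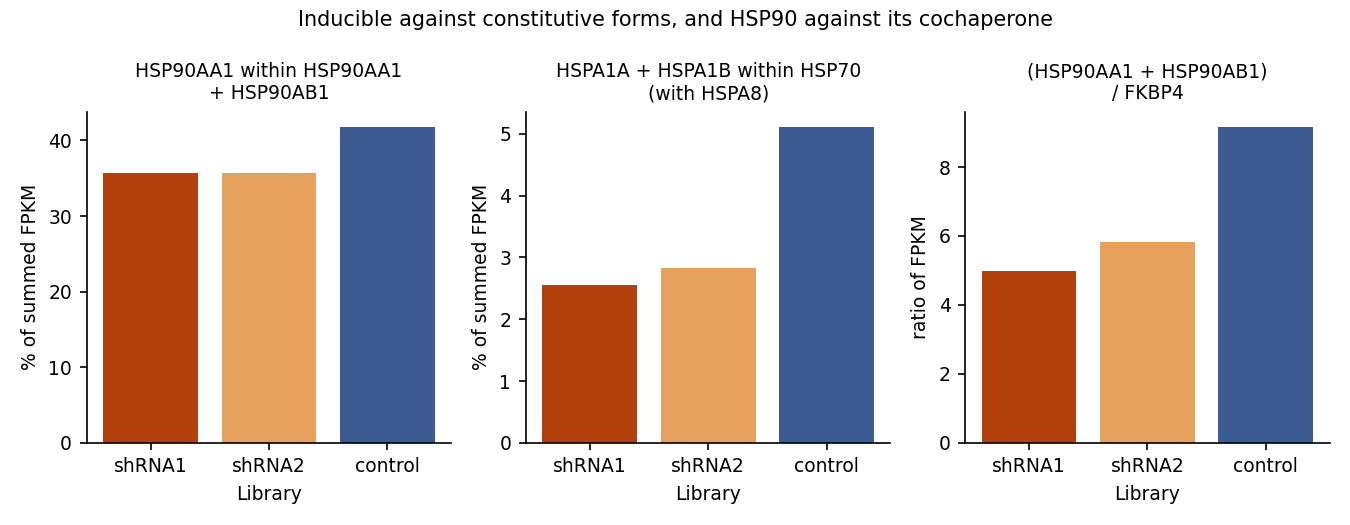
Share of HSP90AA1 in the summed FPKM of the HSP90 pair (left), share of HSPA1A and HSPA1B in their sum with HSPA8 (middle) and ratio of the HSP90 pair to FKBP4 (right) with shRNA1, shRNA2 and in the control, 1 bar per library and no error bar. Each of the 3 is lower with both hairpins than in the control, the middle one at 2.56% and 2.84% against 5.11%.

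The HSP70 partners among the 10 genes lay close to their control levels. DNAJB1 (ENSG00000132002, chromosome 19, 14514770 to 14529770), the J-domain protein HSP40 that hands substrates to HSP70, was at 39.5 FPKM with shRNA1 and 35.9 FPKM with shRNA2, against 42.5 FPKM in the control. Both hairpin libraries lay below the control, with a log2 change of -0.17 (SE 0.10) and a limma Benjamini-Hochberg adjusted p of 0.321. TECR, on the opposite strand, overlaps DNAJB1 and stood at 38.4 FPKM with shRNA1, 42.8 FPKM with shRNA2 and 59.1 FPKM in the control. No source used here says whether reads were counted by strand, and the part of TECR in the DNAJB1 values was not tested. HSPH1 (ENSG00000120694, chromosome 13, 31134974 to 31162388), the HSP110 that acts as a nucleotide exchange factor of HSP70, was at 16.5 FPKM with shRNA1 and 17.0 FPKM with shRNA2, against 15.3 FPKM in the control. Its log2 change of 0.12 (SE 0.10) had a limma Benjamini-Hochberg adjusted p of 0.448.

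The small heat shock proteins went opposite ways. HSPB8 (ENSG00000152137, chromosome 12, 119178642 to 119221131) works with BAG3 and HSP70 in the removal of misfolded proteins and is known in breast cancer cells as an estrogen-induced gene. It was at 35.1 FPKM with shRNA1 and 36.5 FPKM with shRNA2, against 56.1 FPKM in the control. That is 1.599-fold and 1.54-fold lower, a log2 change of -0.64 (SE 0.09) with a limma Benjamini-Hochberg adjusted p of 0.0829 (0.0089 to 0.227 over the alternatives). HSPB1 (ENSG00000106211, chromosome 7, 76302544 to 76304295) encodes HSP27, which also protects actin filaments and is abundant in estrogen receptor-positive tumours. It was at 626 FPKM with shRNA1 and 530 FPKM with shRNA2, against 465 FPKM in the control, with both hairpin libraries above the control. The distance between the hairpins, 0.24 on the log2 scale, was the largest of the 10 genes, and the log2 change of 0.31 (SE 0.13) had a limma Benjamini-Hochberg adjusted p of 0.222.

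The promoters of these genes were read for heat shock elements, since HSF1 binds there. The RefSeq promoter table (GRCh38.p14) held 14 promoters of 9 of the 10 genes, and the 250 bases before each start site were searched for the forms GAANNTTC and TTCNNGAA, each of which reads the same on both strands. Of the 9 genes, 8 had a promoter with such a pair of units, 8 of 14 promoters in all, whereas 11.6% of all 35116 promoters in the table had one. The longer forms GAANNTTCNNGAA and TTCNNGAANNTTC, which are reverse complements of each other and contain both short forms, occurred in a promoter of HSP90AA1, HSP90AB1 and HSPA8 and in 0.441% of all promoters. HSPH1 had none of these letters in its window. A match is a description of letters and shows no binding. The windows are given 5′ to 3′ on the strand of the gene, with the units of each match in capitals.

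The HSPA1A and HSPA1B windows, shown because this pair had the lowest ratios to the control, lie at chr6:31815401-31815480 and chr6:31827597-31827676 on the plus strand. Over the 250 bases the promoters of the pair align with 235 identical bases, 93.6% of the aligned positions, and each holds 1 match.
HSPA1A: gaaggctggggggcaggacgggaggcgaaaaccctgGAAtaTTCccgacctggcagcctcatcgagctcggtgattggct
HSPA1B: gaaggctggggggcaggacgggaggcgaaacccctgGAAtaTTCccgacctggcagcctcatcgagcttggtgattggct

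HSP90AA1 and HSPB8, also lower with both hairpins, are shown next. The HSP90AA1 window at chr14:102087079-102087158 on the minus strand belongs to the second of its 2 promoters and holds 3 matches, 2 of which overlap as 1 long form. The HSPB8 window at chr12:119178807-119178886 on the plus strand holds 1 match with the same 8 letters as in the HSPA1 pair.
HSP90AA1: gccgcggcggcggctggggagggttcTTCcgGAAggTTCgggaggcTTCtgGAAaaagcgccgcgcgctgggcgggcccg
HSPB8: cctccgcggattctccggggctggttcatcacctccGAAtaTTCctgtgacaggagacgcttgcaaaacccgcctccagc

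HSP90AB1, lower by less, HSPA8, split between the hairpins, and HSPB1, higher with both, hold matches too and are shown for that contrast. DNAJB1, not shown, holds 2 matches in the second of its 3 promoters. The HSP90AB1 window at chr6:44247771-44247850 on the plus strand belongs to the third of its 3 promoters and holds 2 long forms. The HSPA8 window nearest the start site lies at chr11:123062146-123062225 on the minus strand and holds 1 long form, with another farther upstream. The HSPB1 window lies at chr7:76302455-76302534 on the plus strand and holds 1 match.
HSP90AB1: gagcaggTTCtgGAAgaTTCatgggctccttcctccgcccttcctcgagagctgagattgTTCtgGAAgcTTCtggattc
HSPA8: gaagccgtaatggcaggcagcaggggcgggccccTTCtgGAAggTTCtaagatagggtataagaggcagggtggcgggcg
HSPB1: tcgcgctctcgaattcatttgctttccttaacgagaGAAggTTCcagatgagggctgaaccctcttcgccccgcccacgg

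With a match in 8 of the 9 genes, its presence could not separate the genes that were lower from those that were not. Any part of these elements in the changes was not tested. Among the genes with a match, the log2 change ran from -0.97 for HSPA1B to 0.31 for HSPB1. The long form was held by HSP90AA1, at -0.49, HSP90AB1, at -0.12, and HSPA8, at 0.05.

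In the list of the heat shock factors, which act on such elements, and of HSBP1, 3 of 4 tested genes were lower with both hairpins and 1 was higher. Of all tested genes 42.6% were lower and 42.4% higher with both. HSF1, the main stress-responsive factor, was at 32.7 FPKM with shRNA1 and 37.5 FPKM with shRNA2, against 39.1 FPKM in the control. HSF2, a developmental factor that can pair with HSF1, was at 14.4 and 12.3 FPKM with shRNA1 and shRNA2, against 11.5 FPKM in the control. HSF4, a factor of the lens, was at 1.91 and 1.11 FPKM, against 2.17 FPKM in the control, and HSF5, a testis factor, was under the filter at no more than 0.00715 FPKM. The deposited lower bound of HSF4 was 0 FPKM in every library, so its place among the lower genes is loosely set. HSBP1, a small protein that binds HSF1, was at 229 and 258 FPKM with the hairpins, against 284 FPKM in the control. None passed limma (Benjamini-Hochberg adjusted p of 0.258 to 0.419 for the 4 tested).

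Beyond the 10 genes, 98 genes of the wider chaperone network were listed, of which 89 reached the filter. Of these 35 were higher and 44 lower with both hairpins (39.3% and 49.4%), where 42.4% and 42.6% of all tested genes were. The same shares of all tested genes are the background for each list that follows. The median log2 change was -0.05, and none passed limma over all genes at a Benjamini-Hochberg adjusted p under 0.05. At an unadjusted limma p under 0.05, 4 were higher and 13 lower, where 13.7% and 15.9% of all tested genes were. Other heat-inducible genes, a list that shares members with the lists below, had 9 lower and 3 higher with both of 16 tested, with a median of -0.13. In that list BAG3, the HSP70 exchange factor of selective autophagy, had the largest lowering, at 16.03 FPKM with shRNA1 and 17.2 FPKM with shRNA2, against 25.4 FPKM in the control. By the mean of the hairpins and with each library's total FPKM made equal, which lowers all changes somewhat, 14 of the 16 were lower and 2 higher (median -0.20). How many of all tested genes were lower with equal totals was not counted, here or for the lists below. UBB, a polyubiquitin gene, had the largest raising, at 584 and 569 FPKM, against 491 FPKM in the control.

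Of 6 other cytosolic HSP70 and HSP110 genes tested, 3 were higher and 3 lower with both hairpins (median -0.05). HSPA2, a testis-enriched HSP70, was at 1.29 FPKM with shRNA1 and 1.72 FPKM with shRNA2, against 4.04 FPKM in the control. HSPA1L, which lies beside HSPA1A, was at 1.11 and 1.21 FPKM with the hairpins, against 0.834 FPKM in the control. Of 12 other J-domain genes, 4 were higher and 6 lower with both (median -0.03). With equal totals all 12 were lower by the mean of the hairpins (median -0.11). The HSP70 and HSP110 list had 4 lower and 2 higher. The median of all tested genes was then -0.12 with shRNA1 and -0.03 with shRNA2. DNAJC9, a J-domain cochaperone of histones, was at 11.02 and 11.8 FPKM with the hairpins, against 16.8 FPKM in the control, and DNAJC2, a ribosome-associated one, at 13.7 and 14.05 FPKM, against 13.2 FPKM.

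Of 8 HSP70 cofactors, 4 were higher and 3 lower with both (median 0.05). BAG1, an exchange factor named for its binding to BCL2, was at 50.5 FPKM with shRNA1 and 47.3 FPKM with shRNA2, against 33.7 FPKM in the control, while BAG3 was lower, as given above. Of 14 other HSP90 cochaperones, 6 were higher and 7 lower with both (median -0.03). With equal totals the cofactors had 4 lower and 4 higher by the mean (median -0.03), and the HSP90 cochaperones 10 lower and 4 higher (median -0.11). FKBP5, the FKBP51 that competes with FKBP4 for HSP90, was at 45.96 and 38.9 FPKM with the hairpins, against 32.4 FPKM in the control. PPID, a cyclophilin of the same receptor complexes, was at 11.3 and 13.3 FPKM, against 17.2 FPKM in the control. Of the other small heat shock proteins only CRYAB and HSPB11 reached the filter, and HSPB11, a protein of intraflagellar transport, was at 42.998 and 41.4 FPKM with the hairpins, against 38.5 FPKM in the control.

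TRiC and prefoldin, the chaperonin of actin and tubulin and its helper, had 9 of 14 genes lower and 5 higher with both (median -0.12). CCT2, a TRiC subunit, was at 179 and 202 FPKM with the hairpins, against 249.9 FPKM in the control, and PFDN5, a prefoldin subunit, at 674 and 623 FPKM, against 550 FPKM. Of 11 mitochondrial chaperones and proteases, 6 were lower and 3 higher with both (median -0.08). HSPD1, the mitochondrial HSP60, was at 176 and 189 FPKM, against 239 FPKM in the control, and TRAP1, the mitochondrial HSP90, at 117 and 95.9 FPKM, against 95.2 FPKM. Of 14 endoplasmic reticulum chaperones, 7 were higher and 5 lower with both (median 0.02). SIL1, an exchange factor of the reticulum's HSP70, was at 100.5 and 95.02 FPKM, against 74.4 FPKM in the control, and SERPINH1, the collagen chaperone, at 57.8 and 58.8 FPKM, against 67.8 FPKM. With equal totals, lower and higher genes by the mean numbered 10 and 4 for TRiC and prefoldin, 8 and 3 for mitochondria, and 8 and 6 for the endoplasmic reticulum, where the median turned to -0.06.

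**Figure D4:**
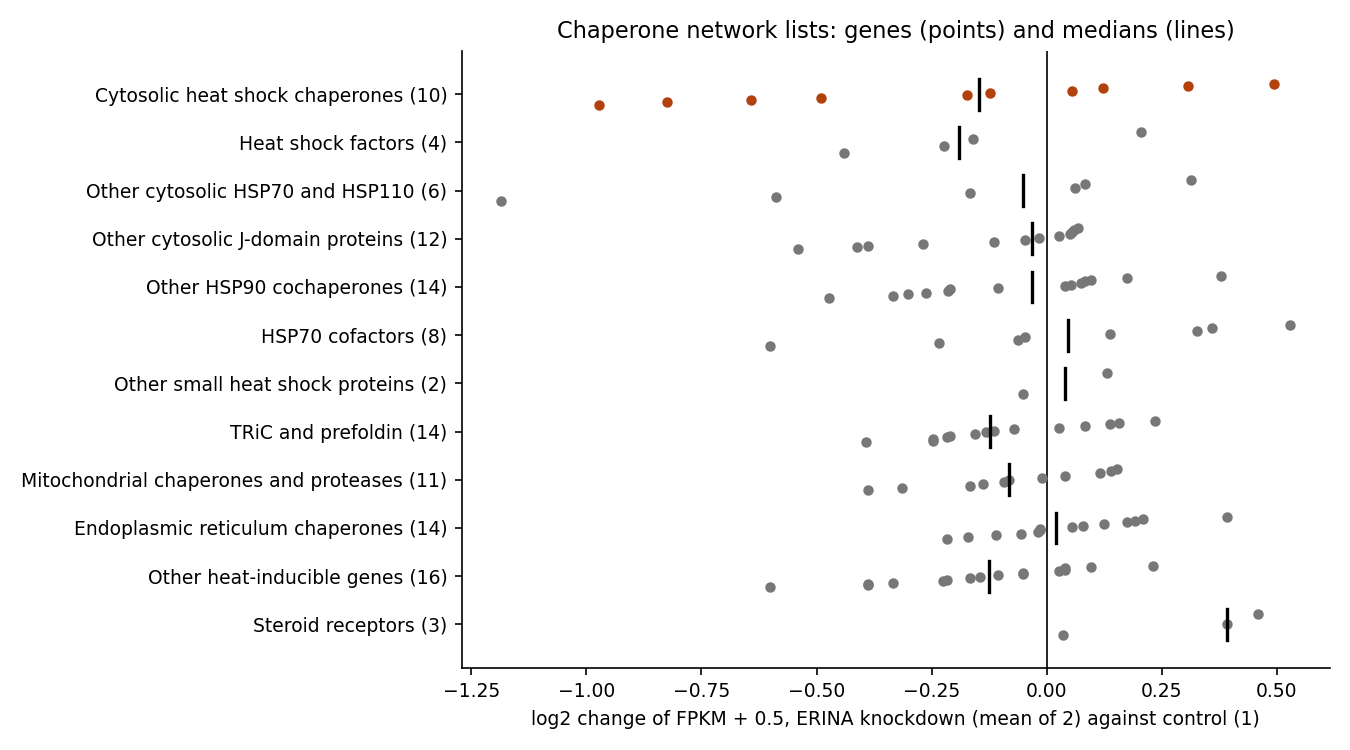
Change of log2(FPKM + 0.5), ERINA knockdown (mean of 2 libraries) against the control (1 library), for each tested gene (points) of the chaperone lists and of the steroid receptors, with the list median as a line and the number of genes in brackets. The 10 cytosolic heat shock chaperones spread from -0.97 to 0.49 around a median of -0.15.

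Steroid receptors are the HSP90 clients for which T47D is best known. NR3C1, the glucocorticoid receptor gene, was at 6.45 FPKM with shRNA1 and 5.65 FPKM with shRNA2, against 4.26 FPKM in the control, and PGR, the progesterone receptor gene, at 55.4 and 53.7 FPKM, against 41.4 FPKM. ESR1, the estrogen receptor gene, was at 16.5 and 18.0 FPKM, against 16.8 FPKM in the control, which lay between them. None of these 3 passed limma (Benjamini-Hochberg adjusted p of 0.0964 to 0.839), and 2 had an unadjusted p under 0.05, both higher, where 13.7% of all tested genes did.

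Among the 89 tested network genes, likeness to a chaperone was measured as the distance between the pairs of log2 changes with shRNA1 and shRNA2. Both changes share the control library, so this is a description. BAG3 lay nearest to HSPB8, at a distance of 0.063, followed by HSPA12A and DNAJC9. DNAJC9, PPID and DNAJA1 lay nearest to HSP90AA1, the first at 0.074. BAG1, SIL1 and FKBP5 lay nearest to FKBP4, the first at 0.065. The genes nearest to the inducible pair were much farther away, BAG3 at 0.34 from HSPA1A and HSPA2 at 0.35 from HSPA1B. The deposited lower bounds of HSPA2, HSPA12A and SIL1 were 0 FPKM in every library, and that of DNAJC9 was 0 FPKM with both hairpins. The places of these genes are therefore loosely set.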

How the data were processed

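Total RNA of 3 T47D libraries was sequenced. The authors deposited FPKM per gene with a lower and an upper confidence bound, per the file headers. Per the submitters' processing notes, STAR, RSEM and the build GRCh38 were used, and neither versions nor roles are stated. For the software behind the bounds, their confidence level, the annotation, strand settings and scaling between libraries, the answer is not given in the sources used here. FPKM carry no counts, and count models were left out. Changes were taken on log2(FPKM + 0.5) for genes with a mean of at least 1 FPKM over the 3 libraries. This scale understates changes of low genes, and ratios of FPKM were taken without a pseudocount. limma 3.58.1 in R 4.3.3 (lmFit, eBayes with trend) tested knockdown against control over all 13112 genes, with Benjamini-Hochberg adjustment and 1 residual degree of freedom. It was tested on simulated data. An exact permutation over 3 libraries could not reach 0.05.

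Gene types, coordinates and transcripts came from GENCODE 29 on GRCh38, with 57435 of 58039 gene IDs matched. Coordinates count from 1. Promoters came from RefSeq, and elements were found with Python 3.11.15 and biopython 1.88. Depth was estimated from genes with 1 transcript of at least 2000 bases whose bounds imply a single fragment, and covers counting error only. All 10 genes were named, and in each other list the gene with the largest change in each direction among those moving one way with both hairpins. All heat shock factors and steroid receptors in the lists used were named too. An item of the lists as first written is not reported here. The 10 genes and all lists were chosen with earlier results of these data known.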

Additional observations from a re-analysis of the deposited data

Results flagged for a closer look

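HSPA8 and the estrogen receptor gene ESR1 each had changes of opposite sign with shRNA1 and shRNA2, which was not tested as a difference. The log2 change of HSPA8 was 0.14 with shRNA1 and -0.030 with shRNA2, and that of ESR1 was -0.023 with shRNA1 and 0.095 with shRNA2. For both genes the deposited intervals of each hairpin overlapped that of the control. The lower bound of ESR1 was 0 FPKM with shRNA2 and in the control, so these signs are loosely set. The limma Benjamini-Hochberg adjusted p for knockdown against control were 0.789 for HSPA8 and 0.839 for ESR1.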

How the results depend on the processing

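Of 112 alternative values for the log2 changes of the 10 chaperones, 2 changed sign, both of HSPA8, to -0.023 when each library's total FPKM is made equal and to -0.030 without the shRNA1 library. Equal totals shift the median of all tested genes by -0.12 with shRNA1 and -0.03 with shRNA2. In limma with Benjamini-Hochberg adjustment, 11 genes were called higher and 35 lower over all genes. These counts became 65 and 111 with the same total, 430 and 595 with the robust option of eBayes, 821 and 1299 with protein-coding genes alone and 0 and 0 with no filter on low values, where 2113 and 2926 of 26013 genes had an unadjusted p under 0.05. Without the trend 6 were called higher. Of the 10 chaperones 0 were called, against 2 lower with the same total (HSPA1A and HSPA1B), 4 lower with the robust option, and 4 lower and 1 higher with protein-coding genes alone. The cause of these shifts was not tested. At 2-fold in place of 1.5-fold, an alternative chosen after seeing the data, 0 chaperones were lower with both hairpins in place of 3. Left out in turn, each hairpin library leaves 1 library against 1 and no test, and all 10 log2 changes except that of HSPA8 kept their sign. Without RMRP and RPPH1 in the total, the chaperones took 0.559%, 0.544% and 0.592% of FPKM with shRNA1, shRNA2 and in the control. No paired analysis was possible because the control has a single library and the groups share fewer than 2 replicate numbers. The deposited intervals had a median of 34.9% of the value on each side for the 10 genes in the control. What variance they hold is not stated in the sources used here, so they cannot be read as the spread between cultures.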
